A study of Mus musculus with 2 samples.

Results

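Low-GC protein-coding promoters are stretches of open chromatin beside the start of a protein-coding gene in which fewer than 50% of the bases are G or C. Peaks of 2 single-cell ATAC-seq libraries were merged where they overlapped, and 170665 of 268016 merged regions on chromosomes 1 to 19 held a peak of both. Of these, 20547 lay within 1 kb of a protein-coding transcription start site (TSS) of GENCODE M21 on mm10, and 4418 of them (21.5%), near 3690 genes, had a GC content below 50%. The other 16129 promoter regions served for comparison.

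Single-cell ATAC-seq marks accessible DNA in individual nuclei with a transposase. Here it was run on mammary organoids, which are epithelial structures grown in matrigel from gland fragments. Both libraries came from C57BL/6J animals of genotype shTRPS1.34 ki/+; CAG-rtTA3 tg/+, that is, heterozygous for a doxycycline-inducible short hairpin RNA against Trps1 and for the CAG-driven rtTA3 activator that doxycycline switches on. The DOX library was made after 7 days in doxycycline at 0.1 µg/ml and the EtOH library after 7 days in ethanol. Cells of several mice were pooled, the CAG-rtTA3 driver does not induce the hairpin in every cell, and no doxycycline-treated organoids with another hairpin were analysed here, so the agent and the hairpin cannot be told apart. With 1 library per group there is no replicate: no test was run, and every 95% interval covers counting error only.

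Most vertebrate promoters sit in CpG islands, GC-rich stretches that stay unmethylated and open in nearly all tissues. Promoters outside islands are poor in CpG, often methylated and closed where they are not used, and are typical of genes restricted to particular cell types, such as milk proteins, cornified envelope proteins, immune receptors and odorant receptors. In the mammary gland the secretory programme and the programme of resident macrophages both contain many such genes.

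Some of the strings counted below can be seen in the sequence of low-GC promoters. The 150 bases upstream of the TSS are given for 8 of these promoters (GRCm38 sequence, mm10 coordinates, 5′ to 3′ on the strand of the gene). Serpina3g and Adgre4 were among the most DOX-high in epithelial nuclei, Pde6h and Rptn among the most DOX-low, Nlrp1b, Lrrc66 and Mbnl1 were the most immune-biased with a PU.1 string in the stretch, and Sprr1a was among the most epithelial-biased. They were picked after their values were known, from regions that contain the start of a complete transcript model and that peaks of both libraries cover to at least 80%. Capitals mark TATAAA on the strand of the gene, GAGGAAGT (a string bound by PU.1, the myeloid ETS factor) on either strand, and TGANTCA (bound by AP-1) on either strand.
Serpina3g, chr12:104236102-104236251, plus strand: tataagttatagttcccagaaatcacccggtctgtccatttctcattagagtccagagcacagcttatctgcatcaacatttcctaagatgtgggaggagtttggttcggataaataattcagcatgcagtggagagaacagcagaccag
Adgre4, chr17:55749834-55749983, plus strand: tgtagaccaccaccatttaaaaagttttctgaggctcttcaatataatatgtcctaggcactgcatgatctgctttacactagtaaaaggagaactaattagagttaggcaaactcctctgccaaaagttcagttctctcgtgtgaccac
Pde6h, chr6:136954373-136954522, plus strand: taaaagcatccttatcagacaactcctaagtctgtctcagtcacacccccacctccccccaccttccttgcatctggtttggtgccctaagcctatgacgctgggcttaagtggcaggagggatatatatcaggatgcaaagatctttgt
Rptn, chr3:93393549-93393698, plus strand: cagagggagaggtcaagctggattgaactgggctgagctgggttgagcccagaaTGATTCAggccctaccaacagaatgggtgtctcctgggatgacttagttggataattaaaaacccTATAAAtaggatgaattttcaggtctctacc
Nlrp1b, chr11:71230734-71230883, minus strand: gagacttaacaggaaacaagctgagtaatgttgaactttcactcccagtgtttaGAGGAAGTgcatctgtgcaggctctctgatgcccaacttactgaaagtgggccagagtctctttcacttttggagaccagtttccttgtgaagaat
Lrrc66, chr5:73630313-73630462, minus strand: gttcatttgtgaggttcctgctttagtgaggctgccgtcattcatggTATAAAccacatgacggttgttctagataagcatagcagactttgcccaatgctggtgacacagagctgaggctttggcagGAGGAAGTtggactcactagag
Mbnl1, chr3:60472892-60473041, plus strand: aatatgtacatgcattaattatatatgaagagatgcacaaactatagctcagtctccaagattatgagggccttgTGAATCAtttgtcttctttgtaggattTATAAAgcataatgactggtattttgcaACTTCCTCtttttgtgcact
Sprr1a, chr3:92485896-92486045, minus strand: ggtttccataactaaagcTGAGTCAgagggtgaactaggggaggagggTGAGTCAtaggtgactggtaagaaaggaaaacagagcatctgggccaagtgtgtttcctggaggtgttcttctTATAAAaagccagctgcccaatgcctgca
The Sprr1a and Rptn stretches hold TATAAA beginning 29 and 31 bases before the TSS, the usual place of a TATA box, and the Sprr1a stretch holds TGANTCA at 2 places. The Pde6h, Serpina3g and Adgre4 stretches hold none of these strings. Nor do those of D730048I06Rik, Slc25a21 and Cbs, which were picked by the same rules and are not shown. The stretches are thus no sample of the low-GC promoters. Of the 2079 that contain a TSS, 2.65% hold TATAAA 40 to 20 bases before it. CpG dinucleotides numbered 0 in the Rptn, Nlrp1b, Mbnl1 and Sprr1a stretches, 1 in Adgre4 and Pde6h, and 2 in Serpina3g and Lrrc66.

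The low-GC promoters differed from the others by more than the GC content that chose them. Their median width was 906 bp, against 896 bp in promoters of 50% GC or more. The median ratio of observed to expected CpG was 0.243, against 0.705. A protein-coding TSS lay inside the region in 2079 of 4418 (47.1%), against 82.5% of the others, so that more than every second low-GC region was beside a start site and did not contain it. In epithelial nuclei of the EtOH library the median low-GC promoter held 3.11 CPM (counts scaled to a total of 1000000, relative to the counts of that class and library in all shared regions) and was open in 9.18% of nuclei. The median promoter of higher GC held 18.9 CPM and was open in 42.9% of nuclei.

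Nuclei were clustered on regions over 1 kb from any TSS, and clusters were named from marker genes counted over the gene and 2 kb upstream, which takes in some of the promoters described here, among them the low-GC promoters of Lyz2, Ptprc, Csf1r and Spi1. The epithelial-like class (high at Krt8, Cdh1 and Epcam) held 1751 DOX and 2805 EtOH nuclei, and the immune-like class (high at Ptprc, Tyrobp and Csf1r, as macrophages are) held 1297 DOX nuclei, 42.2% of the library, and 290 EtOH nuclei, 9.34%. The epithelial-like nuclei of the libraries fell largely into different clusters. Cluster 2 held 1362 DOX and 6 EtOH nuclei, and cluster 0 held 59 and 1638. Clusters 3 and 4, led by hormone-sensing luminal markers, held 121 DOX and 1019 EtOH nuclei together, and cluster 5, led by basal markers, held 209 and 142. Total counts were 224762118 in DOX and 211963715 in EtOH, and 23 barcodes occurred in both libraries.

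A feature of the deposited counts bears on every DOX to EtOH ratio. Counts exist only inside the peaks of each library, and a merged region can hold peaks of the libraries that scarcely overlap. In 3821 low-GC promoters (of 4418) the peaks of both libraries covered at least 80% of the region. In 597 they covered less, and in 93 less than 50%. In those 93, of which 91 reached 100 counts in epithelial nuclei and 64 in immune nuclei, 49.5% were at least 2-fold lower in DOX in the first class and 53.1% at least 2-fold higher in DOX in the second. Over all shared regions with less than 50% covered by both, these shares were 43.2% and 56.2%. Slc46a3, a lysosomal transporter, had the lowest epithelial ratio of all low-GC promoters with 200 counts, and its DOX and EtOH peaks shared 12.1% of the region. Of the 10 lowest epithelial ratios, Dennd2d, Plagl2, 1600014C10Rik, Cyth3 and Aox3 likewise had between 2.5% and 36.8% of the region covered by both. Counts are therefore given with and without the 80% requirement, and members given with their values met it unless stated.

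In epithelial nuclei a small share of low-GC promoters differed between the libraries, and that share was larger than among promoters of higher GC. A promoter was called when 100 counts or more were present over both libraries and its level differed by 2-fold or more. Of 4191 that had them, 160 (3.82%) were higher in DOX and 291 (6.94%) lower. Over all 163715 shared regions the same call was made for 5.35% and 8.64%, and among promoters of 50% GC or more for 0.554% and 0.903%. Low-GC promoters thus stood between GC-rich promoters and open regions away from genes of the same composition, of which 6.80% and 10.7% were called. Their median log2 ratio was -0.06 and the middle 50% of values spanned 0.580, against 0.168 in the other promoters. With the 80% requirement 134 of 3633 (3.69%) were higher and 179 (4.93%) lower, beside 5.15% and 7.05% of all regions.

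The share of promoters that were 2-fold apart was lower at each step of GC content from 35% to 65%. It was 15.4% between 35% and 40% GC, 13.5% between 40% and 45%, 8.55% between 45% and 50%, 4.32% between 50% and 55%, 1.37% between 55% and 60% and 0.15% between 60% and 65%. No step marked the 50% limit: the 570 regions of 49% to 50% GC and the 647 of 50% to 51% GC were both apart in 6.86% of cases. Promoters of similar counts differed as well. Between 1000 and 3000 counts 10.3% of 1330 low-GC and 3.46% of 3036 other promoters were apart, and between 3000 and 10000 counts 1.97% of 760 and 0.308% of 6824.

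**Figure D1:**
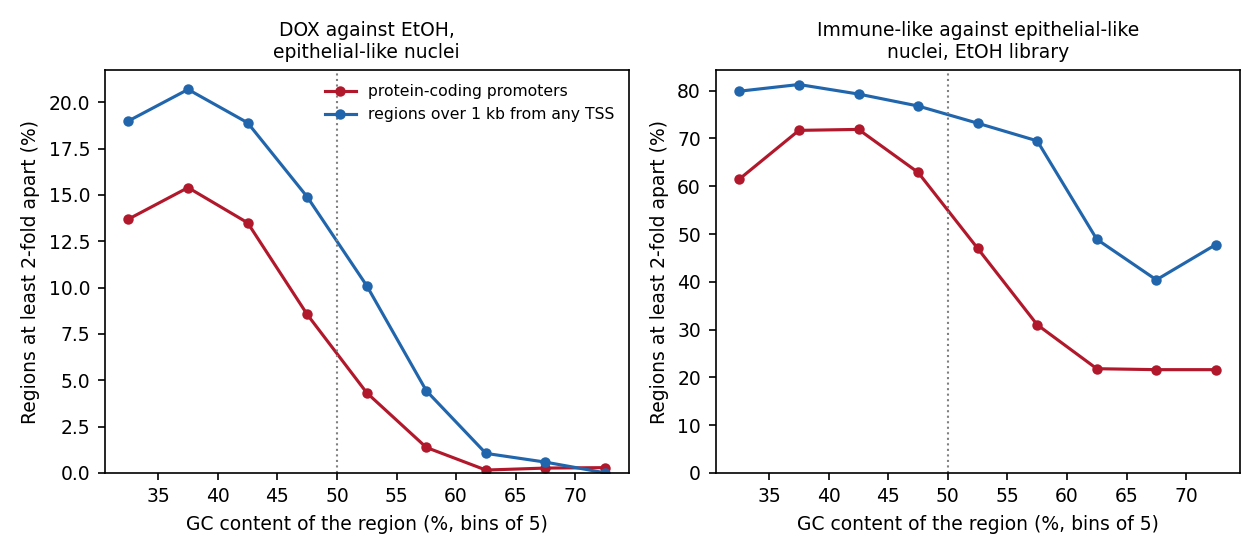
Percentage of regions at least 2-fold apart (y axis, percent) by GC content in bins of 5% (x axis, percent), for protein-coding promoters (red) and regions over 1 kb from any TSS (blue); left, DOX against EtOH in epithelial-like nuclei, right, immune-like against epithelial-like nuclei of EtOH; the dotted line is the 50% limit. Promoters of 40% to 45% GC were apart in 13.5% of cases on the left and 71.9% on the right, and those of 60% to 65% GC in 0.15% and 21.8%.

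Most DOX epithelial nuclei were of cluster 2 and most EtOH ones of clusters 0, 3 and 4, which holds for each value that follows. At a start of Oxnad1, an oxidoreductase gene, taken from an incomplete transcript model, 8.58 CPM were measured in DOX and 0.752 in EtOH epithelial nuclei, a log2 ratio of 3.51 (95% interval 3.15 to 3.90), and 0.535 and 0.213 in immune nuclei. Ldhb, the heart-type lactate dehydrogenase subunit, gave 7.41 and 0.953 CPM (2.96, 2.63 to 3.30) at a region 623 bp from a start in an incomplete transcript model. Olr1, a scavenger receptor for oxidised LDL, gave 12.2 and 2.11 CPM (2.53, 2.30 to 2.77). C130073F10Rik gave 9.76 and 1.68 CPM (2.54, 2.28 to 2.80) and Zfp872, a zinc finger gene, 8.65 and 1.61 (2.43, 2.16 to 2.70). In each of these 5 the epithelial nuclei of DOX stood above both immune sums as well. D730048I06Rik had 7.79 and 0.834 CPM (3.22), and Tmem116 a ratio of 2.83 with 78.9% of the region covered by peaks of both. Zfp872 ranks among the first 10 only where 80% cover is required.

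For 4 further members of the 10 highest, CPM was higher in immune nuclei of both libraries than in EtOH epithelial nuclei. Serpina3g, a serine protease inhibitor, had 2.66 CPM in DOX and 0.441 in EtOH epithelial nuclei (2.59, 2.09 to 3.12) and 4.59 and 3.40 in immune nuclei. Adgre4, an adhesion receptor of macrophages, had 2.01 and 0.338 (2.57, 2.0 to 3.19) against 4.83 and 3.97. Ly9, a SLAM family receptor of lymphoid and myeloid cells, had 2.16 and 0.392 (2.46, 1.92 to 3.03) against 6.14 and 5.18. Dnase2b, an acid nuclease, had 4.50 and 0.507 (3.15, 2.70 to 3.63) against 3.58 and 2.70. The share of immune nuclei also differed between the libraries, 42.2% in DOX and 9.34% in EtOH. Over the gene and 2 kb upstream, 6 of the 8 immune markers that named the class were higher in DOX than EtOH epithelial nuclei (Tyrobp 0.757 and 0.371 CPM, Lyz2 1.52 and 0.894, Fcer1g 2.21 and 1.98, Ptprc 11.1 and 9.74, Spi1 52.0 and 50.2, Cd3e 5.06 and 4.29) and 2 were lower (Csf1r 11.9 and 14.5, Laptm5 8.84 and 9.69). Cd3e, the T cell marker among them, was no higher in immune nuclei (2.03 and 1.77). Over the low-GC promoters at least 4-fold higher in immune nuclei, 26 of 488 (5.33%) were higher in DOX epithelial nuclei and 33 (6.76%) lower, with a median of -0.03, beside 5.35% and 8.64% of all regions. The part of immune nuclei or mixed barcodes in these values was not tested.

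Most of the lowest ratios in DOX epithelial nuclei belonged to promoters that were open mainly in the hormone-sensing clusters. Adam18, a sperm-associated metalloprotease-like gene, had 0.513 CPM in DOX and 3.03 in EtOH (-2.56, -3.13 to -2.04) at a region 732 bp from a start in an incomplete transcript model, and 11.6 CPM within cluster 3 of EtOH against 0.258 within cluster 0. Fdft1, the squalene synthase gene, had 0.884 and 4.96 (-2.49, -2.92 to -2.09) at a region 981 bp from its TSS, and a region at a start of Neo1, a netrin receptor, in an incomplete transcript model, 0.939 and 4.57 (-2.28, -2.70 to -1.89). Pde6h, a phosphodiesterase inhibitor subunit, had 1.02 and 4.45 (-2.13, -2.53 to -1.75), and Rptn, a cornified envelope protein, 1.08 and 4.29 (-1.99, -2.38 to -1.62). Within cluster 3 of EtOH these promoters held 10.2 (Fdft1), 11.0 (Neo1), 16.7 (Pde6h) and 9.99 CPM (Rptn). Psmd13, a proteasome subunit gene, stood apart from them: a start in an incomplete transcript model had 0.852 and 4.01 CPM (-2.24, -2.68 to -1.82) and was highest in cluster 0 of EtOH, at 6.83 CPM. Piezo2, a mechanosensitive channel, had a ratio of -2.39 near a start in an incomplete transcript model, and Trhr2, a thyrotropin-releasing hormone receptor, one of -2.04.

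**Figure D2:**
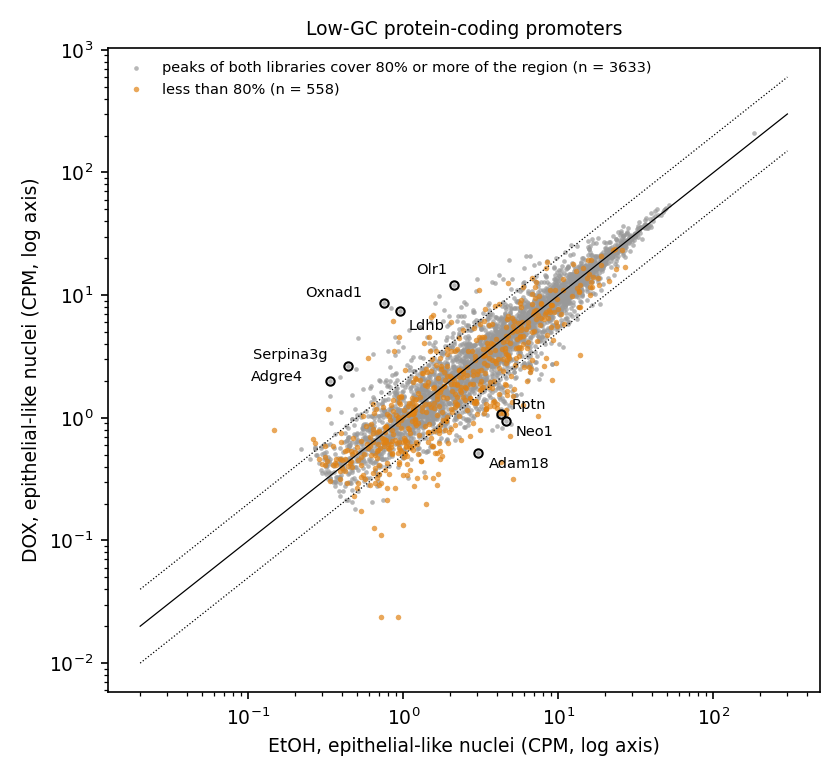
CPM in epithelial-like nuclei of EtOH (x, log axis) and DOX (y, log axis) for the 4191 low-GC promoters with 100 counts, grey where peaks of both libraries cover at least 80% of the region (n = 3633) and orange where they cover less (n = 558); the line marks equality and the dotted lines a 2-fold ratio. Most points lie between the dotted lines, and many of the points far below them are orange.

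Called promoters differed in the cluster in which they were most open. Among the 160 higher promoters, cluster 2 had the highest DOX level of clusters 0, 2, 3 and 5 in 76 (47.5%) and cluster 5 in 57 (35.6%); over all 4191 these were 15.9% and 20.2%. Among the 291 lower promoters, cluster 3 had the highest EtOH level of clusters 0, 3, 4 and 5 in 161 (55.3%), against 26.5% of all. Cluster sizes differed between the libraries, so the sum over epithelial nuclei and the level inside a cluster can part. Inside cluster 3, of the 226 lower promoters with at least 50 counts there, 206 had a ratio below 0 and 78 an interval wholly below it, with a median of -0.55. Of 82 higher promoters, 71 were above 0 and 39 had an interval wholly above it, with a median of 0.69. Of all 3125 low-GC promoters with as many counts there, 1611 were above 0, 209 of them by their interval, and 1512 below it, 216 by their interval. Inside cluster 5, 92 of 119 higher promoters were above 0, 52 of them by their interval, and 45 of 77 lower ones below it, beside 1386 above, 366 by their interval, and 1317 below among all 2704. Inside cluster 0, 76 of 126 higher promoters were above 0, 19 by their interval, with a median of 0.23, and 176 of 218 lower ones were below it, 20 by their interval, with a median of -0.94, beside 1704 above and 2081 below among all 3786. These counts come from the nuclei that gave the calls and describe them only.

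Individual promoters differed in this respect. Zfp872 had 6.46 CPM in DOX and 1.25 in EtOH within cluster 3 (2.37, 1.51 to 3.25) and 3.34 and 0.291 within cluster 5 (3.52, 1.29 to 7.38). Serpina3g likewise was higher within cluster 3 (3.27, 1.33 to 5.6) and cluster 5 (3.21, 1.23 to 6.33), and so was Olr1 (1.11, 0.59 to 1.62, and 2.14, 1.44 to 2.91). Pde6h was lower within cluster 3 by less than in the sum (-1.0, -1.55 to -0.50), while Rptn, at 7.61 and 9.99 CPM, had an interval that included 0 (-0.39, -0.98 to 0.15). Equal numbers of nuclei, 311 per library, were also drawn from clusters 0, 3 and 5, which held at least 50 nuclei of each library. This leaves out clusters 2 and 4, and with cluster 2 most DOX epithelial nuclei. Values with equal nuclei thus describe a different set of nuclei from the sum, and they are given without intervals. There, 59 of the 2642 low-GC promoters that still had 100 counts (2.23%) were higher and 58 (2.20%) lower. The same call was made for 2.78% and 4.23% of all 95328 regions with as many counts. In these nuclei Rptn, Slc22a26 (an organic anion transporter) and Slc25a21 (a mitochondrial carrier) came out at log2 ratios of 0.18, 0.28 and 0.05 after -1.99, -2.23 and -1.98 in the sum.

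In immune nuclei fewer low-GC promoters could be measured. These nuclei held 82199826 counts in DOX and 14099614 in EtOH, so the 100-count minimum was met mostly through DOX. A higher call could therefore rest on few EtOH counts, which bears on the balance of higher and lower calls. Of 2756 low-GC promoters with 100 counts, 114 (4.14%) were at least 2-fold higher in DOX and 20 (0.726%) lower, beside 5.74% and 0.735% of all 83512 regions. Their median log2 ratio was 0.02. With the 80% requirement, 59 of 2367 (2.49%) were higher and 14 lower, beside 3.77% and 0.727% of all regions. The interval lay wholly above 0 in 87 of the 114 higher promoters, and in 37 of the 59. The 5 highest by ratio (Isoc2b, Fam213a, Aqp9, Cnrip1 and Arl14) all failed that requirement, with 1.8% to 73.7% of the region covered by both. Of those that met it, the highest was Olfr156, an odorant receptor gene, with 3.20 CPM in DOX and 0.567 in EtOH (2.50, 1.11 to 4.39), only 8 counts in EtOH. H2-M2, a nonclassical MHC class I gene, had 3.05 and 0.851 (1.84, 0.68 to 3.32), and F2rl2, a thrombin-activated receptor gene, 3.35 and 0.993 (1.75, 0.67 to 3.09). The lowest was a region 275 bp from a start of Epb41l2, a cytoskeletal adaptor, with 35.3% covered by both (-1.37), followed by another that holds a start of Epb41l2, with 2.01 and 5.11 CPM (-1.35, -1.93 to -0.74). Tlr3, the receptor for double-stranded RNA, had 1.93 and 4.40 (-1.19, -1.80 to -0.54), Htr2b, a serotonin receptor expressed by microglia and macrophages, 3.04 and 6.38 (-1.07, -1.57 to -0.54), and Gsta3, a glutathione transferase, 3.09 and 6.31 (-1.03, -1.53 to -0.50).

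**Figure D3:**
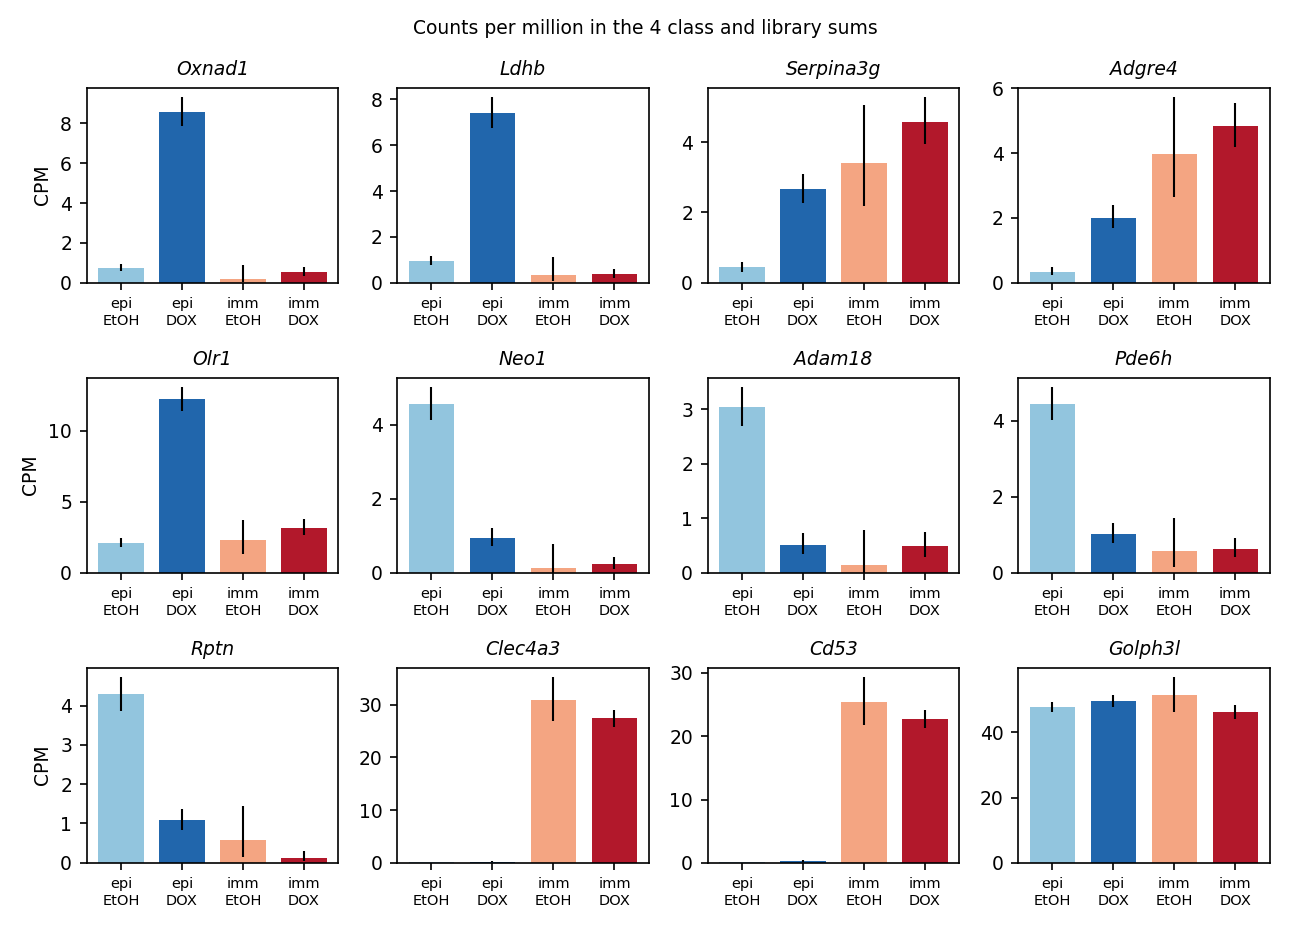
CPM (y axes, each from 0) of 12 low-GC promoters in the sums over epithelial-like (epi, blue) and immune-like (imm, red) nuclei of EtOH (pale) and DOX (dark), with exact Poisson 95% intervals on counts divided by 2. Oxnad1, Ldhb and Olr1 stand highest in DOX epithelial nuclei, Neo1, Adam18, Pde6h and Rptn in EtOH epithelial nuclei, Clec4a3 and Cd53 in both immune sums, and Golph3l is near 50 CPM in all 4.

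More of these promoters were 2-fold apart between the cell classes than between the libraries. In EtOH, 962 of 4328 (22.2%) were at least 2-fold higher in immune than in epithelial nuclei and 1916 (44.3%) lower, beside 16.1% and 55.7% of all regions. In DOX, 1097 of 4336 (25.3%) were higher and 1748 (40.3%) lower, beside 19.5% and 51.6%. Among promoters of 50% GC or more, 7.84% were higher and 22.2% lower in EtOH. There the epithelial nuclei held 183548903 counts and the immune nuclei 14099614, so the count minimum was met mostly through epithelial nuclei. A lower call could therefore rest on few immune counts. Each region also had to hold an EtOH peak, and 90.4% of EtOH nuclei were epithelial-like. This selection bears on the balance of higher and lower calls, here and in the class shares below. Its part was not tested. The median log2 ratio of immune to epithelial nuclei in EtOH was -0.55 for low-GC promoters, 0.27 for the other promoters and -1.50 for all shared regions. Relative to the median region 2137 low-GC promoters would count as 2-fold higher in immune nuclei. The share of all regions on that scale is not given, so this count shows only how much the scale matters.

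**Figure D4:**
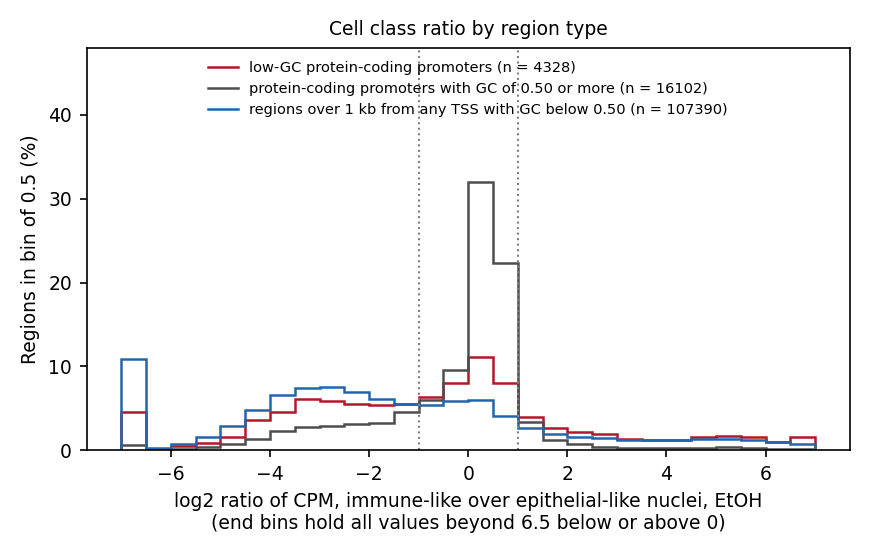
Distribution of the log2 ratio of CPM, immune-like over epithelial-like nuclei of EtOH (x axis), as percent of regions per bin of 0.5 (y axis), for low-GC promoters (red, n = 4328), promoters of 50% GC or more (dark grey, n = 16102) and regions over 1 kb from any TSS of low GC (blue, n = 107390); dotted lines mark 2-fold ratios and the end bins hold all more extreme values. The grey curve peaks between 0 and 1 and the blue curve lies mostly below 0. The red curve shares both shapes, and the red and blue curves both have a tail above 2.

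The 5 most immune-biased low-GC promoters were those of Clec4a3, Cd53, Lilr4b, Dock10 and Olfr111. Clec4a3, a C-type lectin, had 30.9 CPM in immune and 0.109 in epithelial nuclei of EtOH, and 27.4 and 0.221 in DOX. Cd53, a leukocyte tetraspanin, had 25.4 and 0.104, then 22.7 and 0.276. Lilr4b, an inhibitory receptor of the leukocyte immunoglobulin-like family, had 17.6 and 0.027, then 17.2 and 0.055, the epithelial sums resting on 5 counts in EtOH. Dock10, a guanine nucleotide exchange factor of leukocytes, had 15.6 and 0.065, then 18.2 and 0.142. Olfr111, an odorant receptor gene by sequence, had 17.0 and 0.065, then 16.0 and 0.142. Between DOX and EtOH immune nuclei the ratios of these 5 lay between -0.17 (Clec4a3) and 0.22 (Dock10), with intervals that included 0.

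With sums under 3 counts set to 3 for the ranking, the most epithelial-biased were Etl4, Eva1a, Sprr1a, Pde4d and Prkci, each with at most 6 counts in EtOH immune nuclei. The order depends on that floor, since other promoters had 0 counts there. Sprr1a, a small proline-rich cornified envelope protein, had 13.3 CPM in EtOH and 11.1 in DOX epithelial nuclei, with 2 counts in EtOH immune nuclei and a log2 ratio of immune to epithelial of -6.55 (-11.86 to -4.07). Prkci, the atypical protein kinase C of the apical polarity complex, had 23.9 and 23.4 CPM at a region that contains a start in an incomplete transcript model, against 0.426 and 1.22 in immune nuclei. Pde4d, a cAMP phosphodiesterase, had 12.7 and 12.8 CPM, and Etl4 and Eva1a, the latter a regulator of autophagy, 15.1 and 14.4 and 13.2 and 13.8, all at regions that lay 292 to 891 bp from a TSS. The epithelial intervals of Etl4, Eva1a, Pde4d and Prkci included no difference between DOX and EtOH.

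The highest levels were found at promoters that differed little anywhere. Golph3l, a Golgi phosphoprotein, had 47.8 CPM in EtOH and 49.5 in DOX epithelial nuclei and 51.4 and 46.3 in immune nuclei. Cbwd1, Ppm1k (a mitochondrial protein phosphatase) and Fmc1 (a mitochondrial assembly factor) lay between 48.4 and 54.6 CPM in epithelial and between 65.6 and 72.3 in immune nuclei. None of these 4 reached a 2-fold ratio in either class, nor did Gm10800, a predicted gene with 182 and 212 CPM in epithelial nuclei. Reads at Gm10800 may be shared with near copies, as may those of 16 low-GC regions at predicted genes from Gm10722 to Gm10715 at the start of the assembled chromosome 9, of which 11 with enough counts lay between -0.25 and 0.65 in epithelial nuclei.

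Genes with a GC-rich promoter as well allowed both to be read in the same nuclei. Such a second promoter was present for 2103 genes, while 1587 genes had low-GC regions only. Summed over each gene, the low-GC promoter was 2-fold apart between DOX and EtOH epithelial nuclei in 171 of 2051 genes (8.34%) and the GC-rich one in 24 (1.17%). Both were apart in the same direction in 1 gene. In immune nuclei it was 60 (4.07%) and 9 (0.611%) of 1474. Between cell classes in EtOH it was 60.5% and 25.8% of 2083, with 364 genes apart in the same direction and 55 in opposite ones. The Oxnad1 GC-rich promoter had a log2 ratio of 0.05 (-0.02 to 0.11), beside 3.51 at the low-GC region. Ldhb gave -0.04 (-0.14 to 0.07) beside 2.96, and Neo1 0.00 (-0.08 to 0.08) beside -2.28. Prkci gave 0.15 (-0.02 to 0.31) between immune and epithelial nuclei at its GC-rich promoter and -5.81 at the low-GC one.

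Trps1, the target of the hairpin and a GATA-type repressor, had 3 low-GC promoter regions. The hairpin acts on the messenger RNA, so accessibility is no check of the knockdown. One region with a TSS (chr15:50827130-50827992) had 1.15 CPM in DOX and 0.719 in EtOH epithelial nuclei (0.68, 0.18 to 1.18) and 12.9 and 14.8 in immune nuclei. The region 364 bp from another start (chr15:50881716-50882442) had 2.21 and 3.20 (-0.53, -0.84 to -0.24) and 0.316 and 0.496 in immune nuclei. The third (chr15:50825959-50827111) had 0.813 and 2.02 (-1.32, -1.79 to -0.86) with 60.4% of the region covered by peaks of both. The 2 GC-rich Trps1 promoter regions summed to a log2 ratio of 0.55 (0.44 to 0.65), so the promoter regions of this gene differed in direction.

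Gene lists differed in how often their promoters were low in GC. Of 15545 genes, 23.7% had a low-GC promoter, against 76.7% of 43 macrophage surface and lysosome genes, 85.9% of 71 odorant and vomeronasal receptors, 70.6% of 17 milk protein and secretion genes, 67.3% of 49 interferon-inducible genes, 66.7% of 33 cytokines and chemokines, 61.1% of 36 Ly6 and C-type lectin genes and 55.6% of 18 keratin-associated, cornified and small proline-rich genes. Lower shares were found for cytochrome P450 and conjugation enzymes (43.6% of 78), secreted defence proteins (41.2% of 17), proteases, inhibitors and matrix (40.5% of 37), replication-dependent histones (37.3% of 59), smooth muscle contractile genes (33.3% of 18), hormone receptors and luminal regulators (31.6% of 19), solute carriers (26.2% of 301), epithelial junction and adhesion genes (17.2% of 29), keratins (14.3% of 14) and ribosomal proteins (6.85% of 73).

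Of 16 low-GC promoters of milk and secretion genes 0 were 2-fold higher and 1 lower in DOX epithelial nuclei, beside 5.35% and 8.64% of all regions, and the median was 0.01. The lower one was Lalba, the lactose synthase modifier, with 8.52 CPM in DOX and 18.6 in EtOH (-1.12, -1.27 to -0.98). Wap, whey acidic protein, had 2.19 and 3.75 (-0.77, -1.07 to -0.49), and Lpo, lactoperoxidase, 6.22 and 3.15 (0.98, 0.76 to 1.21). With equal numbers of nuclei per cluster this Lpo ratio was -0.27, and another low-GC Lpo region had -0.49 in the sum. Between classes 11 of the 16 were lower and 3 higher in immune nuclei of EtOH, beside 55.7% and 16.1% of all regions. Of 9 secreted defence promoters 0 were 2-fold apart, with Slpi, a leukocyte protease inhibitor, at 22.5 and 16.0 CPM (0.49, 0.39 to 0.60) and Hp, haptoglobin, at 6.25 and 8.67 (-0.47, -0.65 to -0.30), or 0.35 with equal nuclei. Of 17 promoters of proteases, inhibitors and matrix genes 3 of the 16 tested were higher, namely Mmp7, Mmp8 and Thbs1, and Mmp13 was lower. Mmp7, matrilysin, had 12.9 and 6.04 CPM (1.09, 0.93 to 1.25) and Thbs1, thrombospondin, 25.5 and 12.0 (1.08, 0.97 to 1.19), while Mmp13, a collagenase, had 1.16 and 2.72 (-1.23, -1.63 to -0.85). With equal nuclei the Mmp13 ratio was 0.22, and within cluster 3 its interval included 0 (-0.43, -1.10 to 0.20).

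Of 10 low-GC promoters of keratin-associated, cornified and small proline-rich genes 2 were higher in DOX epithelial nuclei (Ivl, involucrin, 1.85 and 0.790 CPM, and Krtap4-2, of which peaks of both covered 74.6%) and 1 lower (Krtap2-4, 2.79 and 5.99 CPM). Over all regions 5.35% were higher and 8.64% lower. All 10 were at least 2-fold lower in immune than epithelial nuclei of EtOH, beside 55.7% of all regions. Neither keratin promoter (Krt20 and Krt6a) and none of 5 junction promoters were 2-fold apart between DOX and EtOH epithelial nuclei. Cldn8, a tight junction claudin, had 22.0 and 26.1 CPM there and 0.487 and 0.567 in immune nuclei. Of 11 smooth muscle promoters 6 were at least 2-fold lower in immune than epithelial nuclei of EtOH and 0 higher, beside 55.7% and 16.1% of all regions. Of 15 hormone receptor and luminal regulator promoters tested between DOX and EtOH epithelial nuclei 2 were lower, beside 8.64% of all regions. These were the Trps1 region of partial overlap and a region 811 bp from a start of Prlr, the prolactin receptor, with 1.22 and 2.60 CPM (-1.10, -1.49 to -0.72). The other low-GC Prlr regions had ratios of 0.39 and -0.29. Ehf, an ETS factor of epithelia, had 1.72 and 3.37 (-0.97, -1.30 to -0.65) at the lowest of its 5 low-GC regions. The median ratio of the 5 was -0.11 and the highest 0.085.

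Of 43 low-GC promoters of macrophage surface and lysosome genes with 100 counts in EtOH, 37 were at least 2-fold higher in immune nuclei, with a median log2 ratio of 5.23, and in DOX 38 of 44 were, with a median of 5.43, beside 16.1% and 19.5% of all regions. The list holds 4 of the 8 markers that named the class (Lyz2, Ptprc, Csf1r and Spi1), whose higher level restates the naming, and without them 33 of 39 and 34 of 40 were higher. Of the 42 tested between DOX and EtOH immune nuclei 0 were higher and 1 lower, with a median of -0.04, beside 5.74% and 0.735% of all regions. In epithelial nuclei 23 reached 100 counts, of which 1 was higher (Ms4a4c) and 4 lower (Ms4a4a, Ms4a6b, Ms4a6d, all membrane-spanning proteins, and Marco, a scavenger receptor). Over all regions 5.35% were higher there and 8.64% lower. Peaks of both libraries covered 78.8% of the Ms4a6b region and 59.1% of that of Marco. Of the 22 Ly6 and lectin promoters 13 were higher and 5 lower in immune nuclei of EtOH. Of 39 interferon-inducible ones it was 17 and 7, and of 27 cytokine and chemokine ones 11 and 10, beside 16.1% and 55.7% of all regions. In epithelial nuclei 2 of the 27 cytokine and chemokine promoters were higher in DOX and 5 lower, beside 5.35% and 8.64% of all regions. A region of Il18, an epithelial and myeloid interleukin, had 16.7 CPM in DOX and 6.00 in EtOH epithelial nuclei (1.47, 1.32 to 1.62) and 0.973 and 0.851 in immune nuclei, whereas another Il18 region had 16.7 and 19.4 in epithelial nuclei. Ccl12, a monocyte chemokine, had 1.18 and 0.485 CPM in epithelial and 42.5 and 43.2 in immune nuclei. Ccl28, a mucosal chemokine, was lower, with 1.00 and 2.43 CPM (-1.28, -1.70 to -0.87). Its ratio was 0.33 with equal nuclei, and its intervals within clusters 0, 3 and 5 all included 0.

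Of 36 interferon-inducible promoters tested in epithelial nuclei 1 was higher and 1 lower, both of Rtp4, a receptor transporter gene: 7.25 and 2.80 CPM at a region 929 bp from its TSS (a log2 ratio of -0.11 with equal nuclei) and 2.10 and 5.27 at one that contains a TSS. Of 18 histone promoters 1 was higher (Hist1h2ab, 4.95 and 2.28 CPM, 980 bp from its TSS) and 0 lower, and of 5 ribosomal protein promoters 0 were 2-fold apart, the most open being Rpl41 at 43.9 and 41.8 CPM. Of 57 odorant and vomeronasal receptor promoters 8 were higher and 6 lower, and for Olfr250 3.77 and 0.997 CPM were measured. Of 96 solute carrier promoters 5 were higher and 11 lower, with Slco1a5, an organic anion transporter, at 5.47 and 1.27 CPM (2.11, 1.80 to 2.42), or -0.29 with equal nuclei. Another low-GC Slco1a5 region had a ratio of -0.065. Of 40 cytochrome P450 and conjugation promoters 1 was higher (Aldh1a1, retinal dehydrogenase, 4.58 and 1.46 CPM, peaks of both over 61.3%, or -1.05 on the log2 scale with equal nuclei and -0.94, with an interval of -1.55 to -0.33, within cluster 5) and 4 lower, among them Ugt1a1, the bilirubin glucuronosyltransferase, at 2.70 and 6.55 CPM (-1.28, -1.53 to -1.03). Of 15 Ly6 and lectin promoters 0 were 2-fold apart. Over all regions 5.35% were higher and 8.64% lower, and no list was tested.

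Strings bound by transcription factors were counted in the 300 bases from 250 before to 50 after the TSS, in 2079 low-GC and 13310 other promoters that contain a TSS. The 18 strings, counted on both strands, were TATAAA (the core of the TATA box), CCAAT (NF-Y), GGGCGG (Sp), TGACGTCA (CRE), AGATAA and also TGATAA as strings of GATA factors, CCGGAAGT (ETS, GC-rich), GAGGAAGT (PU.1, which shares GGAAGT with the former), TGANTCA (AP-1), TTGCNNAA (C/EBP), TGTGGT (RUNX), TGTTTAC (FOX), GGAATG (TEAD), TTCNNNGAA (STAT), the IRF string, ACAATG (SOX), the NF-kB string, AAGATGGC (YY1) and the NRF1 string. TATAAA occurred in 17.0% of windows of low-GC promoters, 5.58% of the others and 7.12% of all promoters. In low-GC regions away from genes it occurred in 16.3% of windows of the same length. Placed 40 to 20 bases before the TSS on the strand of the gene, it occurred in 55 low-GC promoters (2.65%), against 0.999% of the others and 1.22% of all. GATA strings occurred in 23.1% against 7.96% (10.0% of all), AP-1 in 14.0% against 5.17% (6.36% of all) and C/EBP in 17.1% against 7.54% (8.82% of all). In the windows of low-GC regions away from genes the shares were 25.3%, 23.9% and 18.4%, no lower than in the low-GC promoters. The windows were not matched in composition: 30.1% of those of low-GC promoters held 50% GC or more. Windows away from genes were cut at the centre of the region. Strings with CpG were rarer than in the other promoters: Sp in 13.0% against 67.1% (59.8% of all) and NRF1 in 0.914% against 9.34% (8.20% of all). The median window held 4 CpG against 21.

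Within the low-GC promoters some strings went with the cell class. Of 113 windows with the PU.1 string (3.18% of all promoters hold it, 5.48% of the low-GC ones), 58.4% were at least 2-fold higher in immune nuclei of EtOH and 17.7% lower, against 22.0% and 44.0% of the windows without it, and the median log2 ratio was 2.08 against -0.45. The Nlrp1b promoter shown above, of an inflammasome sensor, had 16.7 CPM in immune and 0.185 in epithelial nuclei of EtOH, and 15.1 and 0.268 in DOX. Lrrc66 had 26.3 and 0.305, then 23.4 and 0.607, and the start of Mbnl1, a splicing regulator, 15.8 and 0.158, then 13.5 and 0.158. IRF strings (3.17% of all promoters) and RUNX strings (13.2%) were also followed by larger shares higher in immune nuclei, 33.6% and 32.6%, against 23.3% and 21.6% without them. TEAD, SOX and AP-1 strings (12.0%, 7.62% and 6.36% of all promoters) were followed by larger shares lower in immune nuclei, 49.1%, 52.2% and 50.5%, against 41.2%, 40.9% and 41.2%. Of the 53 windows with the GC-rich ETS string (6.2% of all promoters) 7.55% were lower in immune nuclei.

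**Figure D5:**
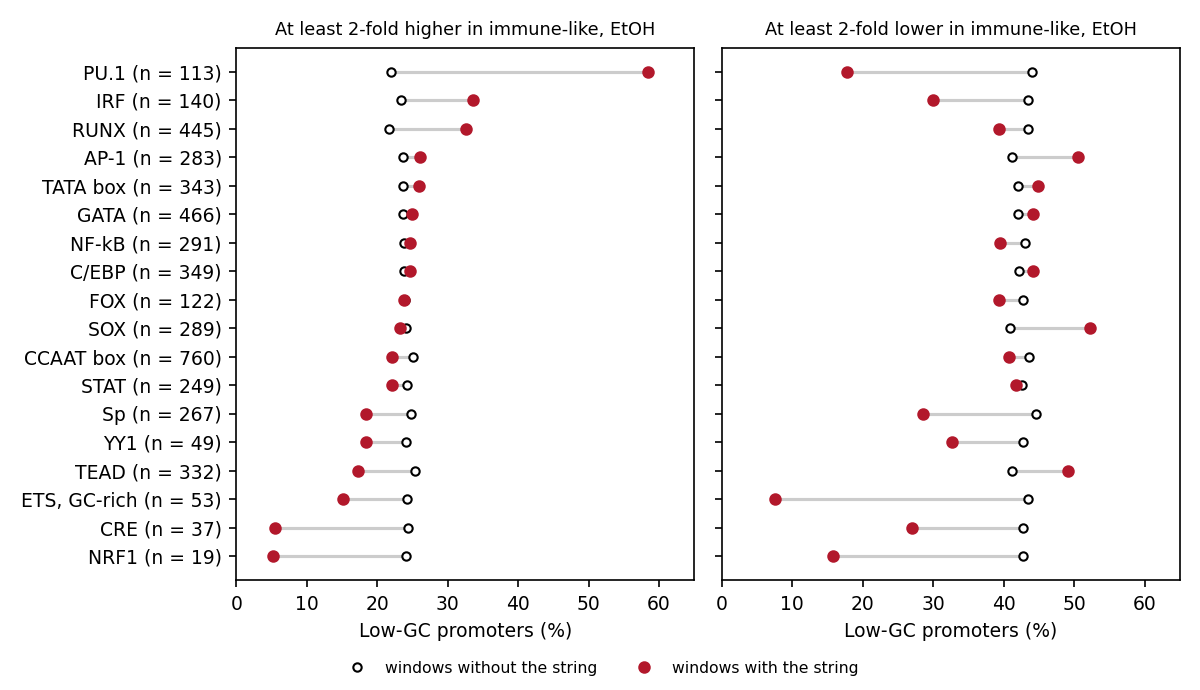
Percentage of low-GC promoters (x axes) at least 2-fold higher (left) or lower (right) in immune-like than epithelial-like nuclei of EtOH, for windows with (red) and without (open) each of 18 strings; n is the number of windows with the string. The PU.1 string has the largest gap on the left, 58.4% against 22.0%, and the GC-rich ETS string on the right, 7.55% against 43.4%.

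Between DOX and EtOH the differences by string were smaller. In epithelial nuclei 17.0% of 282 windows with the AP-1 string were 2-fold apart (6.03% higher, 11.0% lower) against 9.64% without it, and 14.6% of 329 windows with TATAAA against 9.91%. Of 457 windows with a GATA string 7.22% were higher and 5.69% lower in DOX, against 3.36% and 6.66% without it, with medians of 0.07 and -0.06. The share higher was also larger with than without the SOX string (7.58% and 3.71%) and the C/EBP string (6.21% and 3.85%). Windows with Sp strings were apart in 2.26% of 265 cases, against 12.0% without them. The 53 tested promoters with TATAAA at its usual place were higher in 4 cases (7.55%) and lower in 9 (17.0%). Without it 4.17% were higher and 6.15% lower, and over all regions 5.35% and 8.64%. These shares are descriptions of windows that share base composition and neighbours, and no string was shown to be a bound site.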

How the data were processed

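The deposited files were a peak list and a matrix of counts per peak and nucleus for each of 2 libraries. The authors made these counts with Cell Ranger ATAC (version 2.0.0 in the file headers) on mm10, and they are whole numbers of transposase cut ends, not normalised. Odd numbers made up 13.76% (DOX) and 14.29% (EtOH) of nonzero values, since both ends of a fragment mostly fall in 1 peak, so intervals used counts divided by 2.

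Overlapping peaks of chromosomes 1 to 19 were merged, and counts were summed over regions with a peak of both libraries. Nuclei were clustered on regions over 1 kb from any TSS (latent semantic indexing, components 2 to 30, 15 neighbours, Leiden resolution 0.5) and classed by marker genes. No doublet caller was run; leaving out the 5% of nuclei with the highest doublet score was an alternative. CPM were scaled to the counts of the class and library in shared regions. A region was called when at least 2-fold apart with at least 100 counts over both sides. Intervals are exact conditional binomial 95% intervals. They were run only on simulated counts drawn from the model they assume, which cannot show how they hold for real counts. With 1 library per group no test was run.

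Named genes were the 10 highest and 10 lowest epithelial ratios and the 5 highest and 5 lowest immune ratios with at least 200 counts, the 5 highest and 5 lowest immune to epithelial ratios in EtOH, the 5 highest CPM, up to 4 per gene list with the largest epithelial ratio, and Trps1; regions that met the 80% cover were then added by the same rule after values were seen. The promoters, the 17 gene lists and the strings were chosen with earlier results of these data known. Python 3.11.15, NumPy 2.4.6, SciPy 1.17.1, pandas 2.3.3, scikit-learn 1.9.0, leidenalg 0.10.2 and python-igraph 0.11.9 were used. One item is not reported here.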

Additional observations from a re-analysis of the deposited data

How the results depend on the processing

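No paired analysis was possible because there was a single library of each kind, and no replicate could be left out. In epithelial nuclei the 160 higher promoters numbered 94 below 45% GC, 59 with equal numbers of nuclei per cluster (311 per library) and 84 with a TSS inside the region. The 291 lower ones numbered 146, 58 and 127 in that order, and 179 with peaks of both libraries over 80% of the region. In immune nuclei the 114 higher ones numbered 218 at a minimum of 50 counts, 66 at 200 counts, 54 below 45% GC, 199 below 55% GC, 59 with the 80% cover and 57 with a TSS inside. The 20 lower ones numbered 63, 6, 9 and 38 under the first 4 of these, 12 within 500 bp of a TSS and 7 with a TSS inside. All these settings change how many regions are tested. With a TSS inside, 4.26% were higher and 6.44% lower in epithelial nuclei, beside 0.919% and 1.39% of all shared regions with one inside. In immune nuclei it was 4.36% and 0.535%, beside 1.3% and 0.343%. For the GC limits, the count minimums and the 500 bp limit no share of all regions is given, so those counts show no change in share.

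The median epithelial ratio of -0.055 became 0.0046 with the median of all regions set to 0, -0.088 scaled to promoters of 60% GC or more, -0.070 below 45% GC, -0.025 below 55% GC, 0.0094 with equal nuclei, -0.039 with the 80% cover and -0.029 with a TSS inside, so its sign depends on the scaling. The median immune ratio of 0.021 became -0.016, 0.066, 0.047 and 0.00037 under the first 4, 0.0050 with the cover and -0.0020 with a TSS inside. Promoters higher in immune than epithelial nuclei numbered, in EtOH (962) and DOX (1097), 2137 and 2101 with the median set to 0, 409 and 482 below 45% GC, 1489 and 1699 below 55% GC and 489 and 541 with a TSS inside. The share of all regions with the median set to 0 is not given.

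With equal numbers of nuclei per cluster, 14 named log2 ratios changed sign: Aldh1a1 -1.05, Ccl28 0.33, Hist2h3c2 -0.001, Hp 0.35, Itgb6 0.22, Klrb1a -0.26, Lpo -0.27, Mmp13 0.22, Rptn 0.18, Rtp4 -0.11, Slc22a26 0.28, Slc25a21 0.054, Slco1a5 -0.29 and Tpm1 0.16. A further 61 moved beyond their interval and 17 did not. The 108 named values compared under clustering on all shared regions, and under the median set to 0, did not move beyond theirs. Alternatives with the 80% cover, a TSS inside, a complete transcript model and an interval excluding 0 were chosen after seeing the data. Depth limits immune nuclei most: 1662 of 4418 promoters had under 100 counts there.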
